A study of Mus musculus with 2 samples.

Results

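Early-anagen melanocyte stem cells (McSCs) that carried Oca2 transcripts and had no UMI of the division genes Mki67 and Top2a were examined across all genes. They were taken from a single-cell RNA library of sorted GFP+ cells and chosen by their own counts of unique molecular identifiers (UMIs). A barcode was kept with more than 10000 UMIs, less than 5% mitochondrial UMIs, at least 1 Dct UMI and fewer than 3 Krt10 and Krt14 UMIs. Of the 11010 barcodes in the library, 3464 passed the UMI and mitochondrial limits and 2785 passed all 4 conditions. Among these, 1523 cells had no UMI of Mki67 or Top2a and are called cells outside the cell cycle, although transcripts of other cycle genes were not limited. In 192 of them at least 2 Oca2 UMIs were counted, and these are the Oca2-high cells described here. They made up 12.6% (95% Clopper-Pearson interval 11.0 to 14.4) of the cells outside the cell cycle and 6.89% of the 2785 filtered cells. Their comparison group was the 1252 cells outside the cell cycle without an Oca2 UMI, and the whole series held 15337 barcodes.

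Both libraries came from the skin of mice fed doxycycline. The mice carried Dct-rtTA and tetO-H2B-GFP, so that the Dct promoter drives a GFP-tagged histone and sorting depended on Dct activity. The early-anagen library was made with the v3 kit from mice depilated at 8 weeks of age and sampled 4 days later, when follicles were in anagen II. The bulb library, made with the v2 kit, held melanocytes of anagen VI hair bulbs from mice 5 weeks old. Cells of 4 mice were combined in each library, so that there is 1 library per condition and cells are not traced to mice. Differences between cells of 1 library could therefore not be tested across animals. Ratios are given with 95% intervals that cover counting error only, and no p-value is attached to them. The 2 libraries shared 1 cell barcode.

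Melanocytes make pigment in melanosomes, organelles that are related to lysosomes. A fibrillar matrix built from PMEL is laid down first, tyrosinase and its relatives then form melanin on it, and channels and transporters set the ions and pH inside the organelle. Oca2 encodes a membrane protein of the melanosome that acts in chloride transport and keeps the lumen from becoming too acidic for tyrosinase. McSCs of the resting follicle are not pigmented. When the hair cycle begins, they are activated in the hair germ, and some of their progeny become the pigment cells of the new hair bulb. The Id genes encode inhibitors of basic helix-loop-helix transcription factors and are well-known targets of BMP signalling.

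Sequences upstream of the start sites of 5 genes of this pattern are shown because these genes stood higher together in Oca2-high cells and their starts carry the same short motif. MITF, the main transcription factor of the lineage, recognises the M-box core CATGTG. This motif was searched on both strands, so that a match on the opposite strand reads CACATG here. The related E-box CACGTG, a palindrome that overlaps neither, was counted as well. The 250 bases before the RefSeq start (GRCm38.p6) are written 5′ to 3′ on the strand of the gene, in lower case with the matches in capitals.
Oca2, chr7:56239509-56239758, plus strand: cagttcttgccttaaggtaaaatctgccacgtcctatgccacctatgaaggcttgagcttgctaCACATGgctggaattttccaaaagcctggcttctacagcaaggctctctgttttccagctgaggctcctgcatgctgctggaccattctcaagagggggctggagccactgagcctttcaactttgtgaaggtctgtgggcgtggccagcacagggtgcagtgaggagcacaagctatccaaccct
Trpm1, chr7:64153585-64153834, plus strand: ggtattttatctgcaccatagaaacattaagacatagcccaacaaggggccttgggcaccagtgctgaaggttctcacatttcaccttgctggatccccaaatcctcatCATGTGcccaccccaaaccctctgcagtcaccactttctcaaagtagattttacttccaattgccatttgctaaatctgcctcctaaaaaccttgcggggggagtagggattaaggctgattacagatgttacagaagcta
Tyr, chr7:87493513-87493762, minus strand: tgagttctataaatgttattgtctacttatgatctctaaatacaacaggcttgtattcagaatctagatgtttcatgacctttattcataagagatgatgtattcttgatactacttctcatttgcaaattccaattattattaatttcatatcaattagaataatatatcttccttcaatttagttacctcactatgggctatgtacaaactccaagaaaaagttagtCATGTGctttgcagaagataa
Slc24a5, chr2:125067877-125068126, plus strand: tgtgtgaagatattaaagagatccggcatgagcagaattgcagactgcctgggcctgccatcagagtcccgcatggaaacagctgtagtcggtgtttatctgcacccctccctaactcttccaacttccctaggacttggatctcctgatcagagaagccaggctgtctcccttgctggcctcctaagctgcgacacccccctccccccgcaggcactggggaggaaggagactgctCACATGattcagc
Mc1r, chr8:123406832-123407081, plus strand: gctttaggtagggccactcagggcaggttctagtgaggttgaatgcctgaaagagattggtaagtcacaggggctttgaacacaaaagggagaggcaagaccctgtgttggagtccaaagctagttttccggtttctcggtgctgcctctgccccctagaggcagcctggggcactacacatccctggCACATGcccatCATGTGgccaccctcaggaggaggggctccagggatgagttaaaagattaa
CATGTG or its reverse was found once in each of the first 4 sequences, nearest to the start in Slc24a5 (bases -13 to -8) and farthest in Oca2 (bases -186 to -181). In Mc1r it occurred at bases -62 to -57 and again at -51 to -46. The window of Slc24a4 held the E-box and not the M-box core, and that of Id2 held neither. Both windows overlap annotated exons and are not printed. A further window of Trpm1, at another start, held the E-box, overlaps annotated exons as well and is not printed.

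Across the table, CATGTG was present upstream of 13.8% of 27025 genes and of 8.27% of the 2479 genes with at least 50 CPM in these cells. It was present in 9 of 38 pigmentation genes with a sequence (23.7%), in 8 of 54 genes that were at least 2-fold higher in Oca2-high cells (14.8%) and in 3 of 39 that were at least 2-fold lower (7.69%). CACGTG was present in 6.86% of all genes, in 12% of those with at least 50 CPM, in 13 of 38 pigmentation genes (34.2%), in 12 of 54 higher genes (22.2%) and in 3 of 39 lower genes (7.69%). Such matches describe the letters of the window and were not tested for binding.

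The rule set Oca2 itself, and its values are a description. The gene spans 56239760 to 56536518 of chromosome 7 (GRCm38, plus strand). Between 2 and 25 Oca2 UMIs were counted per Oca2-high cell, with a median of 4. The 50 cells with 8 or more UMIs held 56.2% of all 1171 Oca2 UMIs in the group. Just inside the limit, 44 cells had 2 UMIs and 35 had 3, and just outside it, 79 cells had 1. After every cell had been thinned at random to 10000 UMIs, the summed level of Oca2 was 231 CPM (the summed UMIs of a gene scaled to the total of its group) in Oca2-high cells and 43.0 CPM in cells with 1 UMI. In 57 barcodes rich in Krt5, Krt10 and Krt14 and poor in Dct, no Oca2 UMI was found, which allows a share of up to 6.27% of such barcodes with a UMI at this depth and does not limit the share that express the gene. Their median depth was 34075 UMIs, above that of the Oca2-high cells.

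Oca2-high cells were sequenced more deeply than the comparison cells, with medians of 27147 and 18411 UMIs. Every level and ratio was therefore computed at 10000 UMIs per cell. At that depth a median of 3007.5 genes was detected per Oca2-high cell and 2902 per comparison cell. Mitochondrial UMIs had medians of 3.58% and 3.19%, and ribosomal protein genes took 22.6% and 26.2% of the UMIs. At least 2 Oca2 UMIs among the 10000 were found in 7.49% (6.21 to 8.92) of cells outside the cell cycle and in 3.09% (2.21 to 4.20) of the 1262 cycling cells. With all UMIs, 110 cycling cells were Oca2-high (8.72%), although cycling cells were deeper.

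Among 3079 genes with at least 50 CPM in either group, 68 (2.21%) were at least 2-fold higher in Oca2-high cells and 51 (1.66%) were at least 2-fold lower. Since the cells were chosen by the same measurement, these shares describe the contrast. The highest ratios were those of Brca1, Slc24a4, Trpm1, Id1, Cxcl14, Pde10a, Id2, Nhs, Gja1, Gpr143, Kif26b and Gng11. The lowest were those of Gbp2, Cxcl9, Apod, Fxyd5, Cxcl10, Serpinb1a, C4b, Cd200, Art3, Cst6, Capn6 and Vim. Among the 12 highest, the log2 ratio was 1.96 (1.63 to 2.28) for Nhs and 1.84 (1.53 to 2.15) for the kinesin Kif26b. It was 1.95 (1.58 to 2.32) for Gja1, a gap junction protein, and 1.83 (1.71 to 1.94) for the G protein subunit Gng11. Gja1 was at 51.6 CPM in Oca2-high cells and at 288 CPM in the barcodes rich in keratins. Over the 7667 genes with at least 10 CPM, the median log2 ratio was 0.06, with 9.06% at least 1.5-fold higher and 7.36% at least 1.5-fold lower. These shares are the background for the gene lists, which were counted by the same 1.5-fold limit. The level of 10 CPM could be reached in either group, so some genes entered only through the group where they are high.

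**Figure D1:**
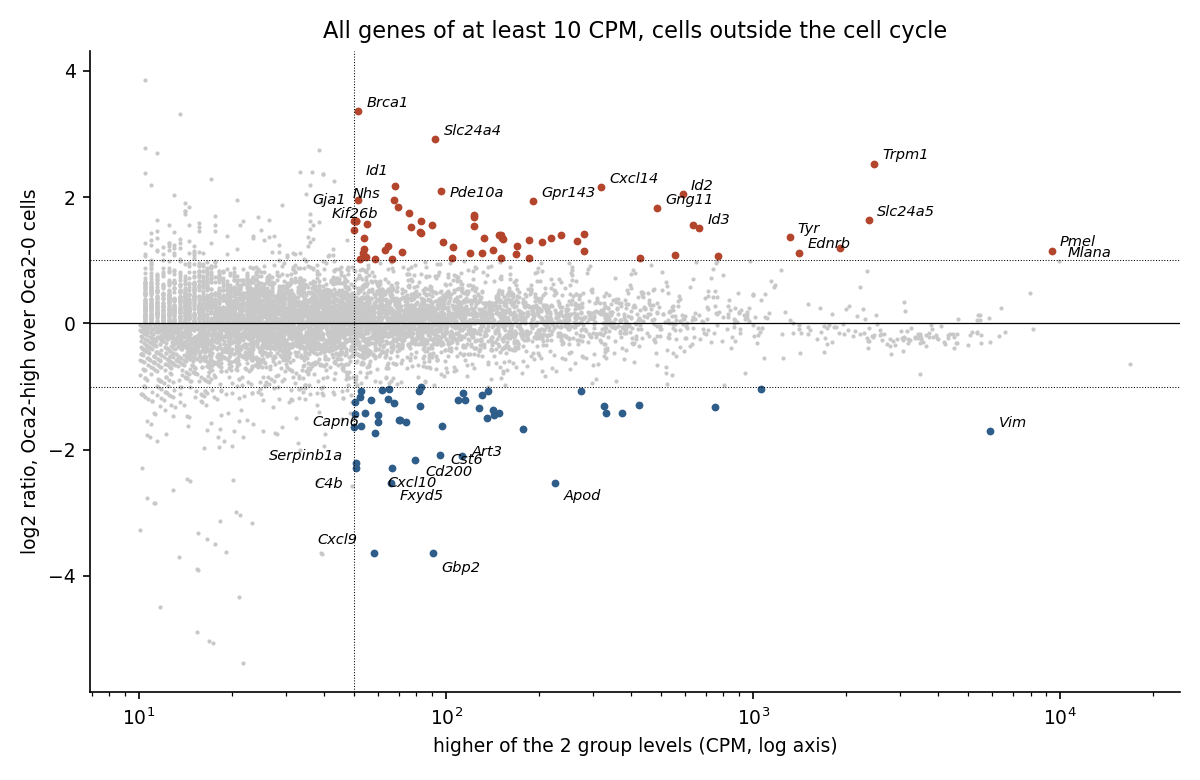
Log2 ratio of summed CPM, Oca2-high over Oca2-0 cells outside the cell cycle, against the higher of the 2 group levels in CPM on a log axis. Each point is a gene with at least 10 CPM, and the 68 genes at least 2-fold higher (red) and 51 at least 2-fold lower (blue) among those with at least 50 CPM are coloured. Trpm1 and Vim stand out at high levels, on opposite sides.

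Of the markers other than Oca2, Trpm1 was the most widespread. Trpm1 encodes a cation channel of melanocytes and lies on chromosome 7 from 64153835 to 64269775. It was detected in 192 of 192 Oca2-high cells at 10000 UMIs, with 3 to 61 UMIs per cell and a median of 24. In comparison cells the count ran from 0 to 50 with a median of 2, and 2.48% of them reached the median of the Oca2-high cells. The groups overlapped only in their tails. Trpm1 was at 2475 CPM in Oca2-high and 428 CPM in comparison cells, a log2 ratio of 2.53 (2.48 to 2.59), and at 5.26 CPM in the keratin-rich barcodes. With cells of over 20000 UMIs thinned to 20000 the ratio was 2.04, the lowest among the alternatives.

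Slc24a4, a potassium-dependent sodium/calcium exchanger that is linked to pigmentation, lies on chromosome 12 from 102128733 to 102267091. Its level was 92.2 CPM against 12.1 CPM, a log2 ratio of 2.92 (2.60 to 3.25). It was detected in 54.2% of Oca2-high and 9.98% of comparison cells. Gpr143 on chromosome X (152781921 to 152808646) encodes a receptor in the melanosome membrane. Gpr143 was at 191 CPM and 50.1 CPM, a log2 ratio of 1.93 (1.74 to 2.12), and was detected in 77.1% and 32.7% of cells. Neither gene had a UMI in the keratin-rich barcodes at this depth.

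Id2 lies on chromosome 12 from 25093799 to 25097140 on the minus strand. It was at 590 CPM in Oca2-high and 143 CPM in comparison cells, a log2 ratio of 2.05 (1.94 to 2.15). It was detected in 89.1% and 46.9% of cells, and in 17.5% of keratin-rich barcodes. Oca2-high cells had 0 to 34 Id2 UMIs with a median of 4.5, and comparison cells 0 to 35 with a median of 0, so that the ranges overlapped.

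Most Oca2-high cells carried the markers together. With all UMIs, each of Trpm1, Slc24a4, Gpr143 and Id2 was detected in 142 of 192 Oca2-high cells (74.0%) and at least 3 of them in 181 (94.3%). In comparison cells this was the case in 112 (8.95%) and 458 (36.6%) of 1252. At 10000 UMIs, where fewer transcripts are seen, the shares with all 4 genes were 39.6% and 3.75%. No Oca2-high cell lacked all 4 genes at either depth. As these genes are markers taken from the same contrast, this describes the cells and is no test of their name.

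Levels were next followed over the number of Oca2 UMIs in the cell. Trpm1 was at 428, 1567, 1834, 2226, 2454 and 3240 CPM in cells with 0, 1, 2, 3, 4 to 7 and 8 or more Oca2 UMIs. Over the same classes Id2 was at 143, 371, 389, 503, 630 and 776 CPM, and Tyr at 510, 966, 1114, 1246, 1257 and 1604 CPM. Vim ran in the opposite order, at 5913, 3100, 2502, 2434, 1560 and 1114 CPM. Other genes did not keep this order. Tyrp1 was at 5699, 7328, 6998, 8963, 7737 and 8494 CPM, and Id3 at 235, 427, 450.0, 540.0, 857 and 710.0 CPM. Gja1 was at 31.7 CPM with 4 to 7 Oca2 UMIs and at 60.0 CPM with 3, and Kif26b at 58.0 CPM with 8 or more and at 91.4 CPM with 3. Cells with 1 Oca2 UMI, left out of both groups, lay between them for Trpm1, Id2, Tyr and Vim. The median depth of the classes ranged from 18411 UMIs at 0 Oca2 UMIs to 31056 at 8 or more. Its part in the order was not tested, other than by thinning each cell to the same number of UMIs.

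**Figure D2:**
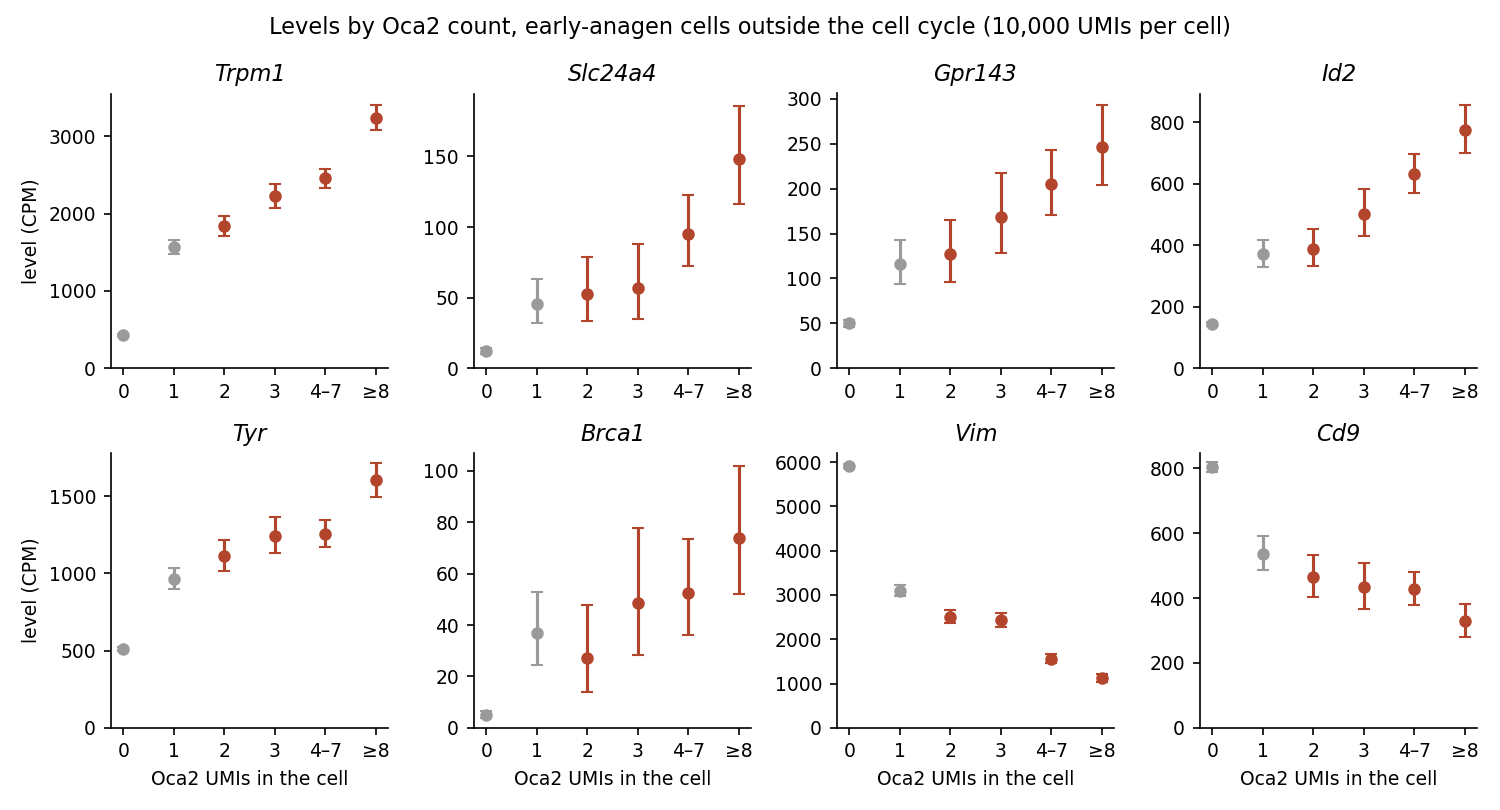
Level in CPM of 8 genes in cells outside the cell cycle, by the number of Oca2 UMIs in the cell, with each cell thinned to 10000 UMIs. Points are summed levels, bars are exact 95% Poisson intervals, grey points are classes with 0 or 1 Oca2 UMI and red points are Oca2-high cells. Trpm1 reaches 3240 CPM and Vim 1114 CPM at 8 or more Oca2 UMIs.

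Pigmentation genes as a group stood higher in Oca2-high cells. Of 46 listed genes of melanin enzymes and matrix, channels and transporters, cargo sorting and transport, 40 had at least 10 CPM. Of these, 37 were higher, 19 were at least 1.5-fold higher and 0 were at least 1.5-fold lower. Among the 19, Mreg, Mfsd12, Bloc1s3 and Bloc1s5 reached 10 CPM in Oca2-high cells only, so their direction follows from that limit. The median log2 ratio of the 40 genes was 0.52, beside 0.06 for all genes, and 0.49 with a minimum of 50 CPM. Trpm1, Slc24a4 and Gpr143 are among the listed genes, while Oca2 and Id2 are not. The summed list took a median of 419.5 of 10000 UMIs in Oca2-high cells (238 to 622) and of 225.5 in comparison cells (11 to 519). No Oca2-high cell was at or below the median of the comparison cells, and 3.12% of comparison cells reached the median of the Oca2-high cells.

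Among melanin enzymes and matrix proteins, 8 of 8 genes were higher. Tyr, the rate-limiting enzyme of melanin synthesis, was at 1312 CPM in Oca2-high and 510 CPM in comparison cells, a log2 ratio of 1.36 (1.30 to 1.43). Pmel, the matrix protein, was at 9376 and 4212 CPM (log2 ratio 1.15, 1.13 to 1.18), and Mlana, which assists PMEL, at 9929 and 5009 CPM (0.99, 0.96 to 1.01). Tyrp1, an enzyme downstream of tyrosinase, differed less, at 7988 and 5699 CPM (0.49, 0.46 to 0.51). Gpnmb and Syngr1 had log2 ratios of 0.18 and 0.16.

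The channels and transporters held some of the highest ratios and some near 0. Beside Trpm1 and Slc24a4, Slc24a5, an exchanger of pigment cells, was at 2377 CPM in Oca2-high and 763 CPM in comparison cells, a log2 ratio of 1.64 (1.59 to 1.69). Slc45a2, a transporter that acts in melanosome pH, was at 466 and 244 CPM (0.93, 0.82 to 1.04). By contrast the log2 ratios of the endolysosomal channel Tpcn1 and of Atp7a, which delivers copper to tyrosinase, were 0.01 and 0.02, and that of Mcoln3 was -0.21. Of 9 genes with at least 10 CPM in this list, 5 were at least 1.5-fold higher.

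Cargo sorting and transport followed at smaller ratios. Rab32 and Rab38, small GTPases that route enzymes to the melanosome, had log2 ratios of 1.45 (1.18 to 1.73) and 0.96 (0.81 to 1.11). Of 17 sorting genes with at least 10 CPM, 15 were higher, and Bloc1s6 and Ap1s2 were at -0.07 and -0.01. Rab27a, which ties melanosomes to the actin motor Myo5a through Mlph, had a log2 ratio of 1.10 (0.91 to 1.28), while Mlph and Myo5a were at 0.55 and 0.49. Each of the 6 transport genes with at least 10 CPM was higher.

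The lysosome and proton pump list, which shares its origin with the melanosome, had a median log2 ratio of 0.44 over 16 genes. Of these, 14 were higher and 5 at least 1.5-fold higher. Ctsl, a lysosomal protease, was at 1230 CPM in Oca2-high and 682 CPM in comparison cells (log2 ratio 0.85), and the proton pump subunit Atp6v0c at 2344 and 1324 CPM (0.82). The pump subunit Atp6v1b2 went the other way, with a log2 ratio of -0.32.

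**Figure D3:**
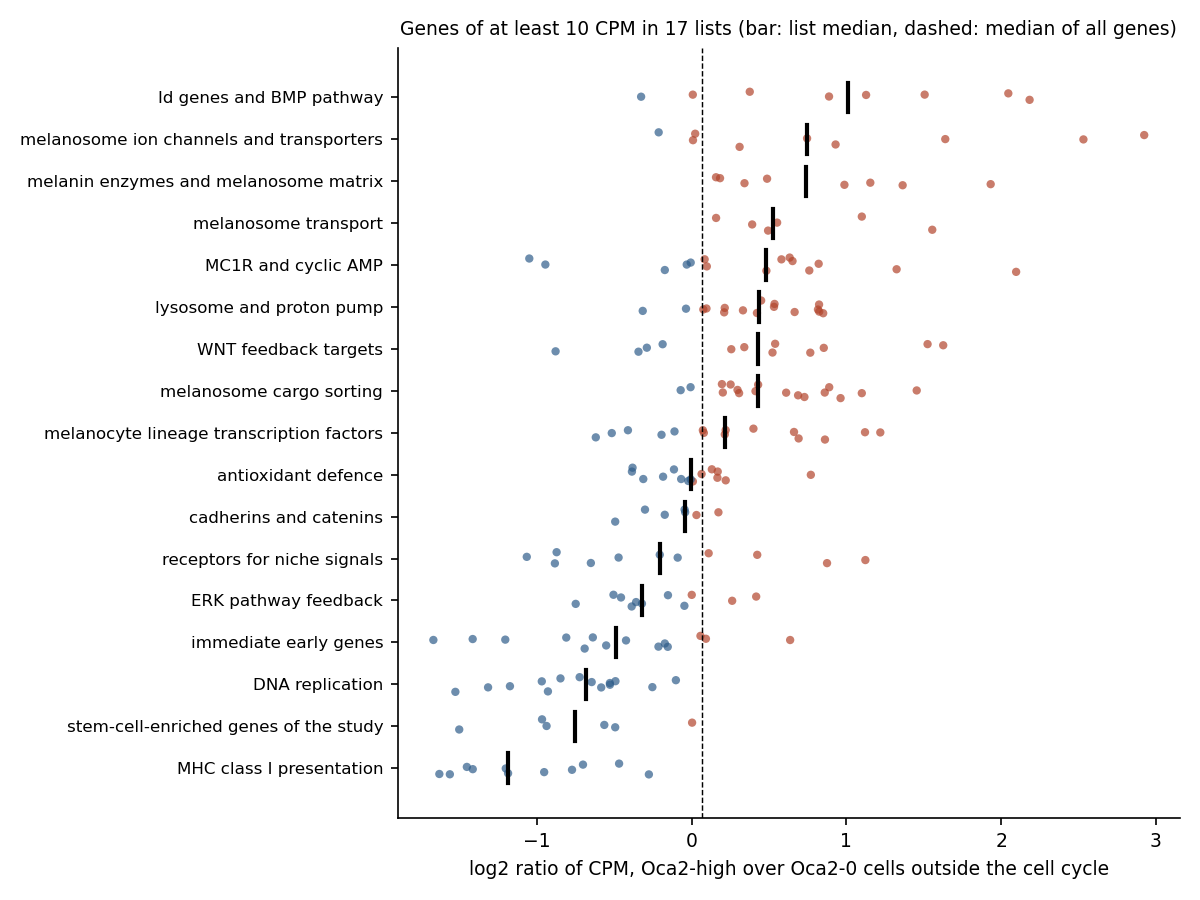
Log2 ratio of CPM, Oca2-high over Oca2-0 cells outside the cell cycle, for each gene with at least 10 CPM in 17 lists, sorted by list median. Each point is a gene, black bars are list medians and the dashed line is the median of all genes, 0.06. Medians of the melanosome lists lie to the right of the dashed line, although some of their genes lie to the left. MHC class I and DNA replication genes lie to the left of it.

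The Id genes, Smad6 and Smad7 were higher. Id1 was at 68.2 CPM in Oca2-high and 15 CPM in comparison cells, a log2 ratio of 2.18 (1.85 to 2.51). Id3 was at 668 and 235 CPM (1.51, 1.41 to 1.60) and Id4 at 31.8 and 17.2 CPM (0.89, 0.45 to 1.30). Smad7, an inhibitor of the pathway, had a log2 ratio of 1.13 (0.84 to 1.41). Smad6, an inhibitor with more weight on BMP signals, rested on 12 and 7 UMIs, with a log2 ratio of 3.48 (2.02 to 5.07). Smad1 and Smad5, which carry the BMP signal, were at 0.38 and 0.01, and the pseudoreceptor Bambi was the only lower gene with at least 10 CPM, at 31.8 and 39.9 CPM (-0.33, -0.74 to 0.06). Bmp2, Bmp4 and Grem1 had no UMI in Oca2-high cells. Of 8 genes of this list with at least 10 CPM, 5 were at least 1.5-fold higher, with a median of 1.01.

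Id transcripts were not spread evenly. Summed over Id1 to Id4, Oca2-high cells had a median of 10 of 10000 UMIs, from 0 to 78, and comparison cells a median of 1, from 0 to 86. The groups overlapped, as 13.5% of Oca2-high cells were at or below the median of the comparison cells. Without cells that had any Krt10 or Krt14 UMI, which left 110 Oca2-high cells, the log2 ratio of Id1 was 1.45. The keratin-rich barcodes themselves held 49.1 CPM of Id1 and 29.8 CPM of Id2.

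**Figure D4:**
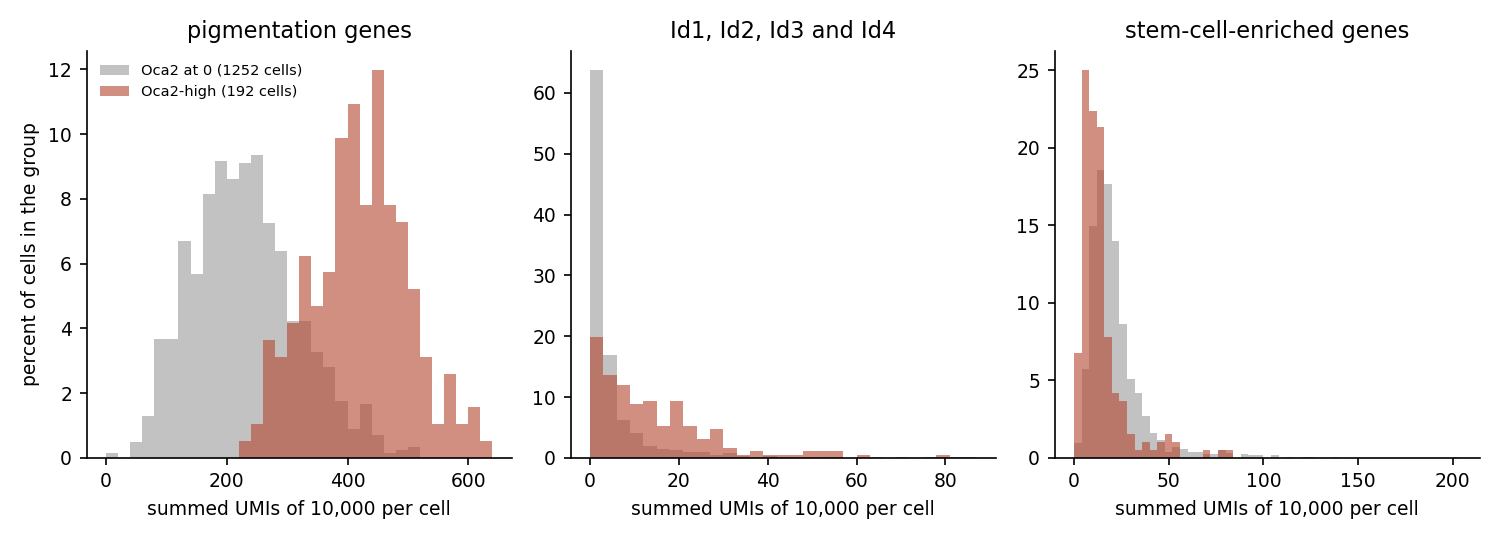
Distribution over cells of the summed UMIs, of 10000 per cell, of pigmentation genes, Id1 to Id4 and the 6 stem-cell-enriched genes, as percent of the cells in each group. Red bars are the 192 Oca2-high and grey bars the 1252 Oca2-0 cells outside the cell cycle. The pigmentation sums overlap only in the tails, and the other distributions overlap widely.

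Among transcription factors of the lineage, Mitf was at 742 CPM in Oca2-high and 409 CPM in comparison cells, a log2 ratio of 0.86 (0.78 to 0.95). Its relative Tfeb, a regulator of lysosomal genes, was at 170 and 73.2 CPM (1.22, 1.03 to 1.40), and Irf4, a cofactor of MITF at the Tyr gene, at 53.6 and 24.7 CPM (1.12, 0.78 to 1.45). Sox10 and Pax3, which act upstream of Mitf, had log2 ratios of 0.22 (0.04 to 0.40) and -0.20 (-0.31 to -0.08). Foxd3 and Zeb1 were at -0.52 and -0.62. Over 15 factors with at least 10 CPM the median was 0.21, with 5 at least 1.5-fold higher and 1 lower by as much.

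Receptors for signals of the niche were divided. Ednrb, the endothelin receptor, was at 1412 CPM in Oca2-high and 649 CPM in comparison cells, a log2 ratio of 1.12 (1.06 to 1.19), and Met, the receptor of hepatocyte growth factor, at 198 and 108 CPM (0.87, 0.71 to 1.04). Kit, the stem cell factor receptor, was at 467 and 498 CPM (-0.09, -0.19 to 0.01). Erbb3, a neuregulin receptor, was at 39.1 and 81.8 CPM (-1.07, -1.42 to -0.73), and Igf1r and Bmpr1a were at -0.88 and -0.65. Of 11 receptors with at least 10 CPM, 2 were at least 1.5-fold higher and 4 at least 1.5-fold lower.

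In the MC1R and cyclic AMP list, which drives pigment formation, Mc1r was at 185 CPM in Oca2-high and 74.0 CPM in comparison cells, a log2 ratio of 1.32 (1.14 to 1.5). The phosphodiesterase Pde10a was at 96.4 and 22.5 CPM (2.10, 1.82 to 2.37), and Crem, Pde3a and Ppargc1a were at 0.63, 0.76 and 0.65. Gnas, Prkar1a and Creb1, the shared parts of the pathway, were at -0.03, -0.01 and 0.08, and Pde4b and Adcy2 at -0.95 and -1.05. Among targets and feedback genes of WNT signalling, Nkd1 was at 82.8 and 26.8 CPM (1.63, 1.34 to 1.90), Sp5 at 15.6 and 5.43 CPM (1.52, 0.85 to 2.16), Lef1 at 28.1 and 16.5 CPM (0.77, 0.31 to 1.20) and Axin2 at 62.0 and 42.7 CPM (0.54, 0.24 to 0.83). Tcf7l2 went the other way, at -0.88. Over 12 genes of the WNT list with at least 10 CPM, 4 were at least 1.5-fold higher and 1 at least 1.5-fold lower.

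Brca1, which acts in homologous repair of DNA breaks and is usually high in dividing cells, had the highest ratio among genes with at least 50 CPM. It lies on chromosome 11 from 101488764 to 101551955 on the minus strand. Its level was 51.6 CPM (41.9 to 62.8) in Oca2-high and 5.03 CPM (3.87 to 6.44) in comparison cells, a log2 ratio of 3.36 (2.89 to 3.84). With all UMIs it was detected in 96 of 192 Oca2-high cells (50%) and in 102 of 1252 comparison cells (8.15%). At 10000 UMIs it was detected in 31.2% and 4.55% of cells, and in 5.26% of keratin-rich barcodes. Over cells with 0, 1, 2, 3, 4 to 7 and 8 or more Oca2 UMIs, Brca1 was at 5.03, 36.7, 27.3, 48.6, 52.4 and 74.0 CPM. In cells of over 20000 UMIs thinned to 20000, the log2 ratio was 2.62.

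Genes that work with Brca1 or lie beside it, which were chosen after their values had been seen, did not share this ratio. Brca2 was at 1.04 CPM in Oca2-high and 6.07 CPM in comparison cells, Bard1 at 2.60 and 1.28 CPM and Palb2 at 0.52 and 0.80 CPM. In Oca2-high cells each of these levels rested on few UMIs. The neighbour Nbr1 was at 33.9 and 27.6 CPM, with a log2 ratio of 0.29 (-0.11 to 0.68). Genes of DNA replication stood mostly lower in Oca2-high cells. Each of the 14 with at least 10 CPM was lower, 9 of them at least 1.5-fold, with a median log2 ratio of -0.69. Mcm5 (7.81 and 22.5 CPM) and Hells (9.38 and 21.2 CPM) reached 10 CPM in comparison cells only, so their direction follows from that limit. Dut was at 44.8 and 85.3 CPM. Rrm2, just under the limit, went the other way, at 9.90 and 5.43 CPM (0.87, 0.05 to 1.62). No mitosis gene of the list reached 10 CPM in either group, as the rule had removed cells with Mki67 or Top2a. The rule counted Mki67 and Top2a over all UMIs, of which Oca2-high cells had more. The part of this difference in the ratios of replication genes was not tested.

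As stem-cell-enriched genes, the text of the study gives Col12a1, Txnip and Cdh1 as examples. Hspa1a, Cd9 and Sept4, which that text does not name, complete the list used here. The single-cell data of the study are these libraries and a telogen dataset not analysed here. Since libraries are shared, the direction of the list is not independent evidence. Of its 6 genes 5 stood lower in Oca2-high cells, 3 of them at least 1.5-fold. Sept4, a septin, was at 47.9 CPM in Oca2-high and 136 CPM in comparison cells, a log2 ratio of -1.50 (-1.82 to -1.20). Cd9, a tetraspanin, was at 411 and 805 CPM (-0.97, -1.07 to -0.86), and Col12a1, a collagen, at 156 and 298 CPM (-0.94, -1.11 to -0.77). Txnip and Cdh1 were at -0.56 (-0.74 to -0.40) and -0.49 (-0.74 to -0.25). Hspa1a, a heat shock gene with a near-identical copy in Hspa1b, was at 531 and 530 CPM, and its ratio had the other sign in 12 of 16 alternatives, between -0.46 and 0.44. The median log2 ratio was -0.75. It was -1.08 when 8 further cycle genes had to be nearly absent, which left 95 Oca2-high cells. Cd9 and Cdh1 were also high in keratin-rich barcodes, at 1551 and 177 CPM.

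Most strongly lower at high level was Vim, the intermediate filament protein vimentin, at 1819 CPM in Oca2-high and 5913 CPM in comparison cells (log2 ratio -1.70, -1.75 to -1.65). Oca2-high cells had 0 to 107 Vim UMIs of 10000 with a median of 11, and comparison cells 0 to 301 with a median of 51. The comparison cells were above the median of the Oca2-high cells in most cases, with 97.4% at or above it. Apod, which encodes a lipid-binding apolipoprotein, was at 39.1 and 226 CPM (-2.53, -2.88 to -2.20), and Fxyd5, a regulator of the sodium pump, at 11.5 and 66.2 CPM (-2.53, -3.21 to -1.92). Cd200, a surface protein that restrains myeloid cells, was at 17.7 and 79.1 CPM (-2.16, -2.70 to -1.67), and Capn6 at 17.7 and 58.7 CPM (-1.73, -2.27 to -1.23). C4b, a complement component, was at 10.9 and 50.9 CPM (-2.22, -2.92 to -1.59), and the protease inhibitor Serpinb1a at 10.4 and 51.0 CPM (-2.29, -3.01 to -1.65). Without cells with a Krt10 or Krt14 UMI the ratio of Serpinb1a was -1.22.

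Gbp2 and Cxcl9 had the lowest ratios among genes with at least 50 CPM. Much of their signal in comparison cells, and of that of Cxcl10, came from few cells. Gbp2, an interferon-induced GTPase, was at 7.29 CPM in Oca2-high and 90.8 CPM in comparison cells (log2 ratio -3.64, -4.51 to -2.89). Cxcl9 was at 4.69 and 58.1 CPM (-3.63, -4.77 to -2.70) and Cxcl10 at 13.5 and 66.5 CPM (-2.29, -2.92 to -1.73). The UMIs of 2 comparison cells made up at least 50% of those of Cxcl9, those of 4 cells of Cxcl10 and those of 20 cells of Gbp2. Gbp2 was nevertheless detected in 21.0% of comparison cells, and in 6.77% of Oca2-high cells. Cells with at least 10 UMIs of Gbp2, Cxcl9, Cxcl10, Ifit1, Ifit3 and Isg15 numbered 14 of 192 Oca2-high cells (7.29%) and 124 of 1252 comparison cells (9.90%). Without them the log2 ratios were -1.67 for Gbp2, -0.51 for Cxcl9 and -0.87 for Cxcl10. This setting was added after the values had been seen. It removes cells by the UMIs of these same genes, so the smaller ratios follow from its construction and are no test. Cxcl10 lies within the span of Art3 on the opposite strand (chromosome 5, Art3 from 92331827 to 92414628). Art3 was at 26.0 and 112 CPM (-2.11, -2.54 to -1.70). Cst6, a protease inhibitor, was at 22.4 and 95.2 CPM (-2.09), but 1 comparison cell held at least 50% of its UMIs there.

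Genes of MHC class I and of antigen processing were lower as well. Each of 11 genes with at least 10 CPM was lower, 9 of them at least 1.5-fold, with a median log2 ratio of -1.19. H2-K1 was at 271 CPM in Oca2-high and 526 CPM in comparison cells (-0.95, -1.09 to -0.82), and Psmb8, a subunit of the immunoproteasome, at 31.2 and 96.8 CPM (-1.63, -2.03 to -1.26). The light chain B2m differed less, at -0.28. H2-Q4 and H2-Q7, near copies whose reads may be shared, were at -1.45 and -1.56.

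Immediate early genes, which respond to stimulation and also to tissue dissociation, were partly lower. Fosb was at 55.7 CPM in Oca2-high and 177 CPM in comparison cells (-1.67), Atf3 at 140 and 374 CPM (-1.42) and Klf4 at 47.4 and 109 CPM (-1.21). Jun and Egr1 were at -0.15 and 0.09, and Dusp1 at 0.64. Of 14 genes with at least 10 CPM, 6 were at least 1.5-fold lower and 1 at least 1.5-fold higher. Heat shock genes had a median log2 ratio of -0.16. The part of dissociation in the other differences was not tested.

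Several lists had medians near that of all genes. The median log2 ratio was -0.05 for cadherins and catenins, -0.01 for antioxidant defence, 0.02 for genes of dendrite formation, 0.03 for glycolysis and -0.10 for TGF-beta signalling. Integrins had a median of -0.17, with 2 of 7 genes at least 1.5-fold lower. Notch genes had a median of -0.22, with 1 of 7 at least 1.5-fold higher and 3 at least 1.5-fold lower, namely the receptors Notch1 (-0.97) and Notch2 (-0.74) and the ligand Jag1 (-1.19). Feedback genes of ERK signalling had a median of -0.32, with 8 of 11 lower and 1 of them at least 1.5-fold. Within glycolysis, Hk2, the hexokinase of the first step, was at 51.0 and 16.5 CPM (1.63, 1.26 to 1.98), and the glucose transporter Slc2a1 at 9.90 and 17.7 CPM (-0.84, -1.60 to -0.16). Gapdh, a later enzyme, was at 2233 and 1499 CPM (0.57, 0.53 to 0.62). In dendrite formation, Map2, a microtubule-associated protein, was at 35.9 and 12.7 CPM (1.5, 1.07 to 1.92), and Rac1 and Cdc42 were at -0.07 and 0.02. Among cell cycle inhibitors and D cyclins, Cdkn1a was at 25 and 52.7 CPM (-1.08, -1.53 to -0.65), and Cdkn1b and Ccnd2 were at 0.18 and 0.07. Among cells of like depth, within the 10th to 90th percentile of the Oca2-high cells, the log2 ratio of Cdkn1a was -0.40.

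Markers of other cell types were low in both groups. The 13 keratinocyte genes summed to 46.9 CPM in Oca2-high and 120 CPM in comparison cells, with Klf5 (18.8 and 50.6 CPM) and Lgals7 (14.6 and 38.4 CPM) the most abundant, and Krt5 was at 1.56 and 2.96 CPM. The 8 fibroblast genes summed to 20.3 and 38.6 CPM, mostly from Postn, and Col1a1, Pdgfra and Dpt had no UMI. The 8 immune genes summed to 6.77 and 17.4 CPM, with Lyz2 at 5.21 and 1.04 CPM and Cd74 at 1.04 and 15.4 CPM, and Ptprc had no UMI. The 6 endothelial genes had no UMI in Oca2-high cells, and the 5 erythroid genes summed to 0.52 CPM. Among Schwann cell genes, Pmp22 and Foxd3, which melanocytes also express, were at 104 and 140 CPM and at 91.7 and 131 CPM, and Mbp had no UMI in either group. The keratinocyte sum was lower in Oca2-high cells, as were Cd9, Cst6 and Cdh1, and its part in those ratios was not tested. Among 9 melanocyte genes, 8 were higher and Kit was at -0.09.

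The same contrast was then made in cycling cells, which share no cell with the groups above. The 110 cycling Oca2-high cells were compared with 1079 cycling cells without an Oca2 UMI, at 10000 UMIs per cell. Of 3148 genes with at least 50 CPM, 52 (1.65%) were at least 2-fold higher and 21 (0.667%) at least 2-fold lower. Of the 68 genes higher outside the cell cycle, 41 were also at least 2-fold higher in cycling cells, which is 60.3% of the first list and 78.8% of the second. Of the 51 lower genes 18 were shared, 35.3% of the first list and 85.7% of the second. The sign was the same in cycling cells for 68 of 68 higher and 50 of 51 lower genes, and Trib1 was the exception. The share of all genes with the same sign was not counted, so these sign counts have no background beside them. Pigmentation genes had a median log2 ratio of 0.51 in cycling cells and the stem-cell-enriched genes of -0.59. Both sets of cells come from 1 library, so that this is not a replicate of the animals.

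Single genes differed in how far cycling cells followed. Trpm1 was at 1833 CPM in Oca2-high and 431 CPM in Oca2-0 cycling cells, a log2 ratio of 2.09 (2.01 to 2.16), and Id2 at 564 and 161 CPM (1.81, 1.68 to 1.94). Slc24a4 was at 3.24 (2.76 to 3.71) and Gpr143 at 1.96 (1.68 to 2.24). Brca1 was at 40.9 and 23.4 CPM in cycling cells, a log2 ratio of 0.80 (0.31 to 1.26), and its level in Oca2-0 cells was 23.4 CPM in cycle and 5.03 CPM outside it. Vim was at 2136 and 5017 CPM (-1.23, -1.29 to -1.17). The difference between the contrasts was not tested, since there is 1 library.

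**Figure D5:**
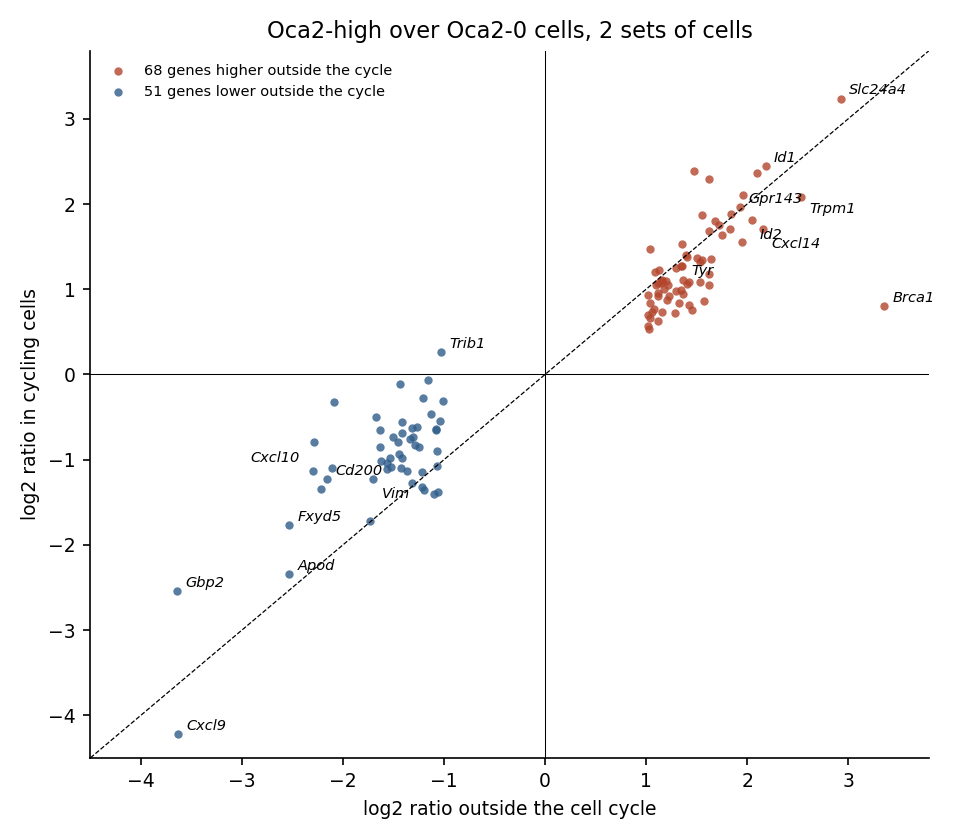
Log2 ratio of CPM, Oca2-high over Oca2-0 cells, in cycling cells against cells outside the cell cycle, for the 68 genes higher (red) and 51 lower (blue) outside the cell cycle. The dashed line marks equal ratios. Every red point is above 0 on both axes, Trib1 alone among blue points is above 0 in cycling cells, and Brca1 lies far below the dashed line.

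Levels in mature bulb melanocytes are given side by side. The libraries differ in kit, age, depth and the dissociation of the skin, and depilation is described for the early-anagen mice only. These differences cannot be told apart from the state of the cells. In 2990 bulb melanocytes outside the cell cycle, with over 10000 UMIs and at least 2 Oca2 UMIs, Oca2 was at 595 CPM, beside 231 CPM in early-anagen Oca2-high cells. For several genes the early-anagen Oca2-high cells lay between the comparison cells and bulb melanocytes. Trpm1 was at 428, 2475 and 4333 CPM in comparison cells, early-anagen Oca2-high cells and bulb melanocytes. In the same order, Id2 was at 143, 590 and 1688 CPM, Gpr143 at 50.1, 191 and 751 CPM, and Pmel at 4212, 9376 and 15810 CPM. On the lower side, Vim was at 5913, 1819 and 42.1 CPM and Cd9 at 805, 411 and 8.43 CPM. Kit was at 498, 467 and 108 CPM, but its 2 early-anagen levels were not separated beyond counting error (log2 ratio -0.09, -0.19 to 0.01). Summed over the 6 stem-cell-enriched genes, the levels in this order were 2127, 1392 and 35.5 CPM.

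Other genes did not follow this order. Brca1 was at 2.74 CPM and Cxcl14, a chemokine, at 5.95 CPM in bulb melanocytes, against 51.6 and 319 CPM in early-anagen Oca2-high cells. Mitf was at 331 CPM in bulb melanocytes and 742 CPM in early-anagen Oca2-high cells, and Met at 46.9 and 198 CPM. Apod was at 81.6 CPM in bulb melanocytes, above the 39.1 CPM of early-anagen Oca2-high cells and below the 226 CPM of comparison cells. Cdkn1a was at 182 CPM in bulb melanocytes, beside 25 and 52.7 CPM in the 2 early-anagen groups. In Oca2-high cells 13 cells held at least 50% of the Cxcl14 UMIs. Cxcl14 was at 71.6 CPM in comparison cells, a log2 ratio of 2.16, which was 1.34 in cells of over 20000 UMIs. It was also found in keratin-rich barcodes, at 168 CPM.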

How the data were processed

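The authors prepared 3′ libraries from sorted GFP+ cells, counted genes with Cell Ranger 6.0.1 against mm10 (GRCm38), and deposited per library a matrix of raw UMI counts per gene and barcode. Neither file holds the authors' cell types, so cells were selected by the rule on deposited counts. The early-anagen library holds 116800173 UMIs in 11010 barcodes and the bulb library 58161397 UMIs in 4327 barcodes.

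Each selected cell was thinned once without replacement to 10000 UMIs (NumPy 2.4.6, seed 1), and UMIs were summed by group and scaled to CPM. Ratios carry exact 95% intervals of 2 Poisson sums, levels exact Poisson and shares Clopper-Pearson intervals (SciPy 1.17.1). PCR duplicates are removed by UMIs, and the intervals cover counting error only. With 1 library per condition no test was made. A gene counted as higher or lower at 2-fold with at least 50 CPM in either group, and in lists at 1.5-fold among genes of at least 10 CPM. Scripts were tested on simulated data.

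Genes were named by a rule: the 5 markers, the 12 highest and 12 lowest ratios at that level (mitochondrial and ribosomal protein genes, unnamed gene models and genes of the selection rule left out), and genes of the lists by example. The members and lists were chosen with earlier results of these data known, including the 6 markers of Oca2-negative cells. Some genes of the lists are not reported here. No doublet caller was run, and keratin limits removed mixed barcodes only in part. Gene positions come from GENCODE vM21. Upstream sequences come from a set built on RefSeq start sites, in which a sequence was found for 4 of the 5 markers. Alternatives were other depths, limits, cycle rules and scalings, edgeR 4.0.16 TMM factors among them.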

Additional observations from a re-analysis of the deposited data

Results flagged for a closer look

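The cells described here are those that passed the filter. Of the 8225 early-anagen barcodes outside it, 67 (0.815%, 0.632 to 1.03) also had at least 2 Oca2 UMIs and no UMI of Mki67 or Top2a, a signal in barcodes that the comparisons of the report did not use. Some of them enter the alternatives with wider limits, where a mitochondrial limit of 10% gave 224 Oca2-high cells. Of the 67 barcodes, 27 had 10000 UMIs or fewer. Among those with more UMIs, 34 had at least 5% mitochondrial UMIs. A further 6, below that share, had at least 3 UMIs of Krt10 and Krt14. Among 57 keratin-rich barcodes none had an Oca2 UMI.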

How the results depend on the processing

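No paired analysis was possible because each condition has 1 library. The pigmentation median stayed between 0.40 and 0.55 in 17 alternatives. The 192 Oca2-high cells became 113 with at least 4 Oca2 UMIs, 95 with 8 further cycle genes nearly absent and 110 with Krt10 and Krt14 at 0. With a minimum of 10 CPM, 175 genes were at least 2-fold higher and 212 lower. The number of lower genes was 85 with 8 further cycle genes nearly absent and 83 with a total free of mitochondrial, ribosomal protein and pigmentation genes. The stem-cell-enriched median was -0.57 in cells of over 20000 UMIs, -0.58 among cells of like depth, -0.92 with at least 4 Oca2 UMIs and -1.08 with 8 further cycle genes nearly absent. The cause of these shifts was not tested. TMM factors shifted every log2 ratio by -0.09. With them 52 genes were at least 2-fold higher and 72 lower, against 68 and 51 in the main setting. Single ratios were recomputed for 62 genes, of which 40 were past 2-fold with at least 50 CPM. Of these 40, 30 stayed past it in every alternative in which they had a value, and 10 did not. The 10 and their values nearest to 0 were Cdkn1a (-0.40), Cxcl9 (-0.51), Irf4 (0.72), Erbb3 (-0.84), Smad7 (0.85), Cxcl10 (-0.87), Tfeb (0.93), Rab27a (0.93), Rab32 (0.96) and Ednrb (0.97). Cxcl9 and Cxcl10 fell under 2-fold only without interferon-high cells. That setting removes cells by UMIs of Cxcl9, Cxcl10 and Gbp2 among others, so it is no test of the ratios of these genes. Further genes of the 62 came closer to 0 by over 1.5-fold, namely Gbp2 (-1.67 without interferon-high cells), Serpinb1a (-1.22) and Id1 (1.45) with keratins at 0, Cxcl14 (1.34) and Brca1 (2.62) in cells of over 20000 UMIs, Smad6 (1.60) in cells thinned to 5000 UMIs, Mreg (0.90) with 8 further cycle genes nearly absent, and Art3 (-1.43) among cells of like depth. Farther from 0 by as much were Smad6 (4.61) and Cdkn1a (-1.83) with 8 further cycle genes nearly absent, Cxcl9 (-4.43) in cells of over 20000 UMIs, Cxcl10 (-3.09) with the rule applied after thinning, C4b (-2.95 without interferon-high cells), Capn6 (-2.42 with at least 4 Oca2 UMIs), Fxyd5 (-3.30 among cells of like depth) and Cst6 (-2.97 in cells of over 20000 UMIs). None of the 40 ratios past 2-fold changed its sign, and the other genes past 2-fold were not run one by one. With 1920000 thinned UMIs in Oca2-high cells, 10 CPM corresponds to few counts, which limits the ratios of such genes.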

Other observations

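Among the other genes at least 2-fold higher in Oca2-high cells were Syt4, a synaptotagmin of vesicle fusion, at 638 and 217 CPM (log2 ratio 1.56, 1.46 to 1.65), and Ptgds, a prostaglandin D synthase, at 1922 and 835 CPM (1.20, 1.15 to 1.26). The neuropeptide gene Npy was at 219 and 85.3 CPM (1.36, 1.19 to 1.52), and at 4033 CPM in Oca2-high bulb melanocytes. Slc7a5, a transporter of large neutral amino acids, was at 206 and 83.8 CPM (1.30, 1.13 to 1.46). S100a8, known from neutrophils and stressed epidermis, was at 123 and 37.4 CPM (1.72, 1.49 to 1.95), and at 3.55 CPM in bulb melanocytes. Smpd1, a lysosomal sphingomyelinase, was at 90.1 and 30.6 CPM (1.56, 1.29 to 1.82). These genes were chosen after their values had been seen.

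Of the lower genes outside the lists, Anxa1 was at 301 and 749 CPM (-1.32, -1.44 to -1.20), Crip1 at 124 and 331 CPM (-1.42, -1.61 to -1.23), Ifitm3 at 173 and 423 CPM (-1.29, -1.46 to -1.13) and Cst3 at 517 and 1064 CPM (-1.04, -1.14 to -0.95). The 6 markers of Oca2-negative cells (Apod, Fxyd5, Cd200, Cavin3, Capn6 and Rnase1), picked from earlier results of these data, were each lower and had a median log2 ratio of -1.94.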
